A study of Drosophila melanogaster with 2 samples.

Results

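The 10 genes examined here form the core of the Dpp and BMP signalling pathway of Drosophila melanogaster, and the question was where chromatin bound by the ETS-domain transcription factor Ets98B lay at them in the pupa. The genes were taken as a pathway list, whose rule uses no measured value, although earlier results of these data were known when the list was drawn up. A peak was assigned to a gene if its summit lay in the gene body or within 1 kb of it and if each of the 2 replicates had a summit of its own within 100 bp. By this rule 32 of the 6429 matched peaks of the series lay at 8 of the 10 genes. Before the replicate match the numbers were 40 peaks at the genes and 7157 in the series.

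The material was whole pupae aged 2 days of a transgenic strain, Ets98B-GFP, that expresses a fusion of Ets98B with eGFP, and chromatin was recovered with an antibody against GFP. Both biological replicates belong to this 1 group, and no other condition was analysed here. A control file entered the making of the peak lists, per the file lists, and its values were not analysed. Whole pupae mix all tissues, so that binding in a few cells and weaker binding in many cells cannot be told apart. The labels do not say which promoter drives the fusion or how many pupae were pooled.

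Dpp and Gbb are secreted ligands of the BMP branch of the TGF-beta superfamily. They assemble type I receptors (Tkv, Sax) with the type II receptor Put, which leads to phosphorylation of the Smad protein Mad. Mad enters the nucleus with the co-Smad Med and there activates target genes, or represses the gene brk together with the zinc finger protein Shn, and the Brk protein is itself a repressor of Dpp targets. In the fly this pathway is best known for patterning the embryonic dorsal ectoderm and for growth and vein formation in the wing, part of which takes place in the pupa.

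Peaks were found at the ligand gene dpp, the type I receptor genes tkv and sax, the Smad genes Mad and Med, the inhibitory Smad gene Dad, brk and shn, and none was found at gbb or put. shn stood out with 15 of the 32 peaks. The single strongest peak was that assigned to Med, with a signal value of 1192, but it lay at the start sites of neighbouring genes, and the next was an intronic peak of dpp, with 699. The signal value is the authors' number for each peak, and the sources used here give neither its scale nor how it was computed. Values of a replicate come from its own list, made separately and at unknown depth, so the means, SDs and ratios over replicates describe the deposited numbers and include any difference in scale between the lists. Over the 32 peaks its median was 174.5 (range 75.0 to 1192), against 138 over all 6429 matched peaks. In the replicates' ranked lists the medians over the 32 peaks were 74.8 in replicate 1 and 95.8 in replicate 2, against 64.0 and 75.0 over all matched peaks. Of the 32 peaks, 21 were above the median of all matched peaks. This did not hold in the thresholded list of each replicate, taken without a replicate match. There the median percentile of the peaks at the members was 49.98 in replicate 1 and 38.5 in replicate 2. In the conservative list it was 67.1 for the 32 matched peaks, against 54.0 for all matched peaks. No test was made, because the list was chosen with earlier results known and both replicates are of 1 condition.

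**Figure D1:**
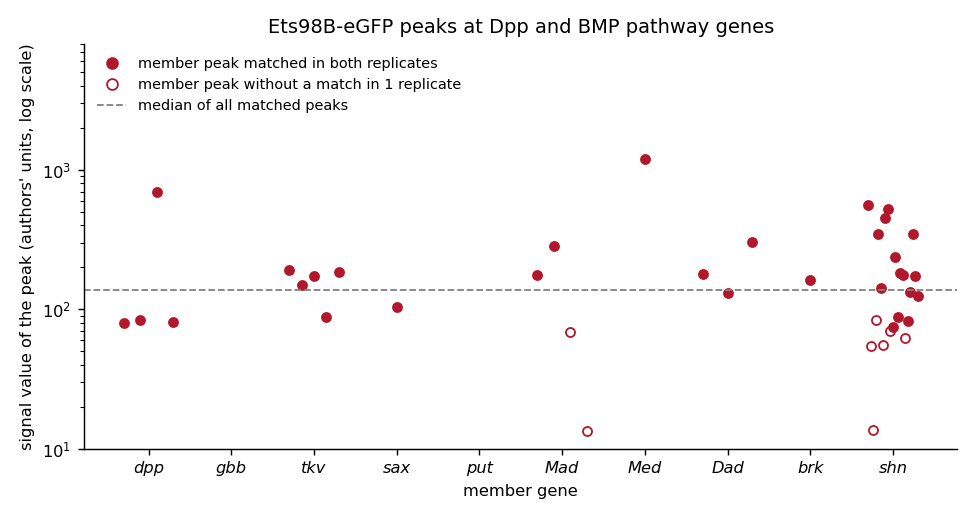
Signal value of each conservative peak (log scale, authors' units) at the 10 member genes, in pathway order from ligands to nuclear factors. Filled points are the 32 peaks matched in both replicates, open points the 8 that lacked a match in 1 replicate, and the dashed line is the median of all matched peaks, 138. shn has 21 points, and gbb and put have none.

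The 8 genes with a peak compare with 30.8% of all 13968 protein-coding genes under the same rule. Long genes hold peaks more often, and the members were long, with a median of 10131 bp against 2164.5 bp over all genes. Among genes over 20 kb, 65.3% held a peak, and all 3 members of that length did (dpp, tkv, shn). Among genes of 5 to 20 kb the share was 50.2%, and 2 of 3 members had a peak (Mad and Dad, but not put). Among genes of up to 5 kb it was 22.8%, and 3 of 4 members had one (sax, Med and brk, but not gbb). For those 3 short genes the summit lay outside the gene, within the added 1 kb. A summit within 500 bp of a transcription start site (TSS) of the gene itself was found for 4 members (dpp, tkv, brk and shn), against 20.1% of all protein-coding genes. Any TSS of a gene counts here, and this share was not split by length. The long genes dpp, tkv and shn have 4, 4 and 5 TSSs, and the summits of tkv and shn were at internal ones.

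**Figure D2:**
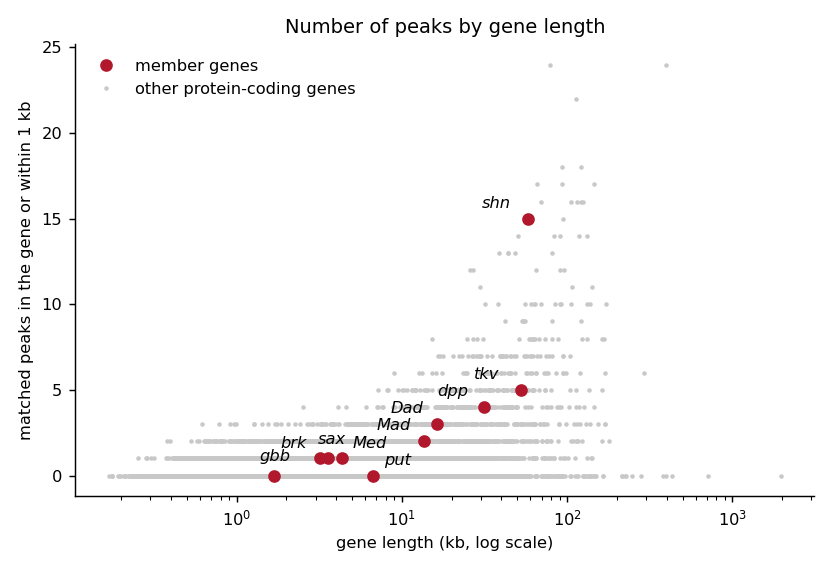
Number of matched peaks in each protein-coding gene or within 1 kb of it against gene length (kb, log scale), with the 10 members in red and the other genes in grey. shn, with 15 peaks, lies far above the other members, and gbb and put lie at 0.

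The gene dpp (FBgn0000490; dm6, 2L, 2428372 to 2459823, plus strand) had 4 peaks, 3 of which formed a group in its first long intron. The middle one (2433501 to 2433789, summit 5275 bp downstream of the first TSS) had a signal value of 699, and 391 in replicate 1 and 301 in replicate 2 (346 ± 63.9, SD, n = 2). It ranked above 97.3% of all conservative peaks. Its neighbours were much weaker, with 84.0 at 4680 bp (33.2 in replicate 1 and 55.4 in replicate 2) and 81.7 at 6055 bp (43.9 and 39.2). The fourth peak was at the first TSS, 28 bp upstream of it, with 79.5 (33.1 in replicate 1 and 39.1 in replicate 2), and also lay 463 bp from the start of the non-coding gene lncRNA:CR44912. In the list thresholded for replicate 1 alone, the strong intronic peak was the only one at dpp, whereas the list of replicate 2 had the 3 intronic peaks and a further one 181 bp from an internal TSS (43.6). The peak at the first TSS, on which the count of dpp among the 4 members with a summit at a TSS rests, overlapped neither of these lists. The intronic and the promoter summit are given as windows of the plus strand centred on the summit, with every GGAA or GGAT (the cores bound by ETS proteins), read on either strand, in capitals. The window of the strong peak holds neither word and is rich in A and T, and the promoter window holds 1 GGAT.
dpp intron, chr2L:2433597-2433697: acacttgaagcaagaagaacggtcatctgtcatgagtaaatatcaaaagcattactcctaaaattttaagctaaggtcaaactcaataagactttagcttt
dpp promoter, chr2L:2428294-2428394: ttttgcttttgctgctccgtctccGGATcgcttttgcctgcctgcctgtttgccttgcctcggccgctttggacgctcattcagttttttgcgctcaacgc

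Of the receptor genes, tkv (FBgn0003716; 2L, 5219000 to 5271384, minus strand), which encodes the main type I receptor for Dpp, had 5 peaks. They were spread over the gene, and 4 had signal values between 149.5 and 190.7, while the remaining one was lower. In order along the gene, the summit 9973 bp from its start had a signal value of 185.3 (94.6 in replicate 1 and 86.6 in replicate 2), the one at 14759 bp had 88.6 (41.1 and 51.8), and the one at 17095 bp had 172 (89.4 and 84.9). A summit 45631 bp from the start, in the last long intron, had 190.7 (106 in replicate 1 and 80.7 in replicate 2).

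The remaining tkv peak lay 50 bp upstream of an internal TSS, with a signal value of 149.5. It was the only tkv peak with a large gap between replicates, with 40.3 in replicate 1 and 121 in replicate 2 (80.5 ± 56.9, SD, n = 2). Its sequence also differed from that of the intronic peaks. The promoter window below is 54.5% G and C, with 2 GGAA words and repeated GAGAG words, whereas the 3 strongest intronic windows lie between 21.8 and 31.7% and hold 1 GGAT between them.
tkv internal promoter, chr2L:5237362-5237462: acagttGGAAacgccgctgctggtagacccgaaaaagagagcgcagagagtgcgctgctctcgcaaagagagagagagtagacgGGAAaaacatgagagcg
tkv intron, chr2L:5261361-5261461: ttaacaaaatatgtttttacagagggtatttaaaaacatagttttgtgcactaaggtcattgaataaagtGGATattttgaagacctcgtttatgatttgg

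The other ligand gene, gbb (2R, 23851562 to 23853247), had no peak by the rule, but one lay just past its edge. The summit of a strong peak, with a signal value of 1686 (923 in replicate 1 and 762 in replicate 2), was 1144 bp from gbb and 117 bp from a TSS of eIF6, the gene of a ribosome assembly factor. The peaks just inside the edge were those of sax, 811 bp from the gene, and of Med, 798 bp. A weak peak 488 bp from the gbb TSS (signal 37.9) was in the thresholded list of replicate 2 alone.

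The gene of the second type I receptor, sax (2R, 7806484 to 7810067), had 1 peak, 811 bp upstream of its TSS. Its signal value was 104 (43.8 in replicate 1 and 33.4 in replicate 2). Replicate 2 also had a stronger call there, with 52.0, whose summit lay 918 bp from the sax TSS. That summit just missed the 100 bp match, so the matched values do not show replicate 2 as weaker at sax. The summit of the conservative peak lay inside the neighbouring gene Nop17l, 107 bp from a TSS of that gene, so that no peak lay in sax itself.

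The type II receptor gene put (3R, 14619030 to 14625703, minus strand) had no peak in the conservative set, and the nearest matched summit lay 9574 bp away. Each replicate alone did have peaks there. An intronic peak had a signal value of 86.7 in the thresholded list of replicate 1, 1563 bp from the TSS, and of 64.9 in that of replicate 2, 1439 bp from it. Replicate 2 also had one 30 bp from the TSS (42.1). The other series-level thresholded list, which is longer (8788 peaks), also had a peak at each of these places, with 149.8 and 64.0. The count of 0 for put thus holds for the conservative list and not for the other lists.

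Among the signal transducers, Mad (FBgn0011648; 2L, 3146056 to 3159643, minus strand), the Smad phosphorylated by the BMP receptors, had 2 matched peaks in introns. The stronger (3153292 to 3153518) lay 645 bp upstream of an internal TSS and had a signal value of 283, with 146 in replicate 1 and 130.1 in replicate 2 (138 ± 10.9, SD, n = 2). The other, 3299 bp downstream of that TSS, had 177 (73.6 and 96.4). A further pair of conservative peaks in the first intron, with 68.2 and 13.5, lacked a summit in 1 replicate each.

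The peak assigned to the co-Smad gene Med (FBgn0288966; 3R, 31611046 to 31615375, plus strand) was among the strongest of the series, at rank 61 of 7157, but it was not at the Med promoter. Its summit lay 798 bp past the 3′ end of Med, 13 bp from a TSS of Mnat9, the gene of an N-acetyltransferase, and 130 bp from that of CG1792. The signal value was 1192, with 623 in replicate 1 and 580.4 in replicate 2 (602 ± 30.2, SD, n = 2). Within 1 kb of Med there was no other conservative peak.

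Dad (FBgn0020493; 3R, 17054007 to 17070408, plus strand) encodes the inhibitory Smad and is a widely used Dpp target gene. It had 3 peaks, all intronic. The strongest (17065002 to 17065276), 10277 bp from the nearest TSS, had a signal value of 302, with 171 in replicate 1 and 125 in replicate 2 (148 ± 32.7, SD, n = 2). Those at 1573 and 4401 bp had 180.4 (48.0 in replicate 1 and 128 in replicate 2) and 131 (58.6 and 86.5). The peak at 1573 bp thus differed most between replicates. Its window is 58.4% G and C and holds the word GGCGCC, a form of the site bound by Brk, which was in 1 of the 32 windows (3.12%), against 1.40% of all matched peaks. The strongest Mad and Dad peaks, and that at Mnat9, are in sequence of 21.8 to 28.7% G and C, as the windows show.
Mad intron, chr2L:3153348-3153448: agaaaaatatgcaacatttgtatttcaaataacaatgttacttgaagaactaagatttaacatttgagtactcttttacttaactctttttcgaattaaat
Dad distal intron, chr3R:17065124-17065224: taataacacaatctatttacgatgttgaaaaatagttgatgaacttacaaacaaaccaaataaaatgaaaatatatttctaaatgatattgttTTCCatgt
Dad proximal intron, chr3R:17056420-17056520: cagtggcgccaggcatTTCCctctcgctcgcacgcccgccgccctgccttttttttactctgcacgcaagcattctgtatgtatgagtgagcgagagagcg
Mnat9 promoter next to Med, chr3R:31616123-31616223: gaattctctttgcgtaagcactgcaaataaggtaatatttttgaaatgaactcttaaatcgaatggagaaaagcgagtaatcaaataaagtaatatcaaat

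The gene brk (FBgn0024250; X, 7307939 to 7311132, plus strand), which has 1 annotated TSS and lies within the much longer gene CG1677 on the other strand, had 1 peak by the rule (7307442 to 7307704). Its summit was 326 bp upstream of the TSS, with a signal value of 163. Replicate 1 gave 48.4 and replicate 2 gave 131 (mean 89.8 ± 58.5, SD, n = 2). The peak overlapped the thresholded list of replicate 2 only. A further 6 matched summits lay within 10 kb upstream, a distance chosen after the data were seen. The strongest of these, 6054 bp upstream of the start, had 273 (145 in replicate 1 and 135 in replicate 2). The one 1166 bp upstream had 202 (55.3 and 150.04), and the other 4 had between 95.7 and 186. For each of the 7 upstream summits, brk was the protein-coding gene with the nearest TSS.

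The upstream region of brk is known for silencer elements, short sites bound by Mad, Med and Shn together through which Dpp signalling represses brk. The element was searched as GNCGNC followed by a gap of 5 bases and GTCTG, on both strands, a form slightly wider than the usual one. On the main arms it occurs 829 times, or 6.03 times per Mb, and 10 of these lay within 10 kb of brk, 9 of them upstream. Of those 9, 5 lay within 400 bp of a matched summit, against 54 of all 829 (6.51%). Summits lie close together upstream of brk, so that much of this stretch is near one. The share over all 829 is therefore not a like baseline, and none was computed for the stretch. The promoter peak itself contains 1, whose middle is 51 bp from the summit and which has the wider form only, whereas 19 of all 6429 matched peaks (0.296%) contain one. The other elements near a summit upstream of brk lay outside the matched peaks. At the other members 6 matches were found within 10 kb, and none of these was within 400 bp of a matched summit. The 400 bp distance and the search over whole loci were chosen after the data were seen, the match is one of letters only, and no test was made.
The full promoter peak is shown with the element in capitals, followed by the other 4 elements near a summit, each read with GTCTG at its 3′ end, with the letters that define the element in capitals.
brk promoter peak, chrX:7307442-7307704: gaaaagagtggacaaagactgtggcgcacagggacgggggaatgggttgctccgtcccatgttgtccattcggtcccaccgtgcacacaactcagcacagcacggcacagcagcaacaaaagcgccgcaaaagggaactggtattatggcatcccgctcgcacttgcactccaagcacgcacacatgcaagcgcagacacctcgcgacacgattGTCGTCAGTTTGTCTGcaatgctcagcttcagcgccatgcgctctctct
element 128 bp from a summit, chrX:7301300-7301315: GGCGTCcgctcGTCTG
element 203 bp from a summit, chrX:7302752-7302767: GGCGGCcaaatGTCTG
element 298 bp from a summit, chrX:7305762-7305777: GACGACggactGTCTG
element 372 bp from a summit, chrX:7300274-7300289: GGCGCCtctatGTCTG
The first of these 4 lies on the plus strand, as does the second, and the others on the minus strand.

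**Figure D3:**
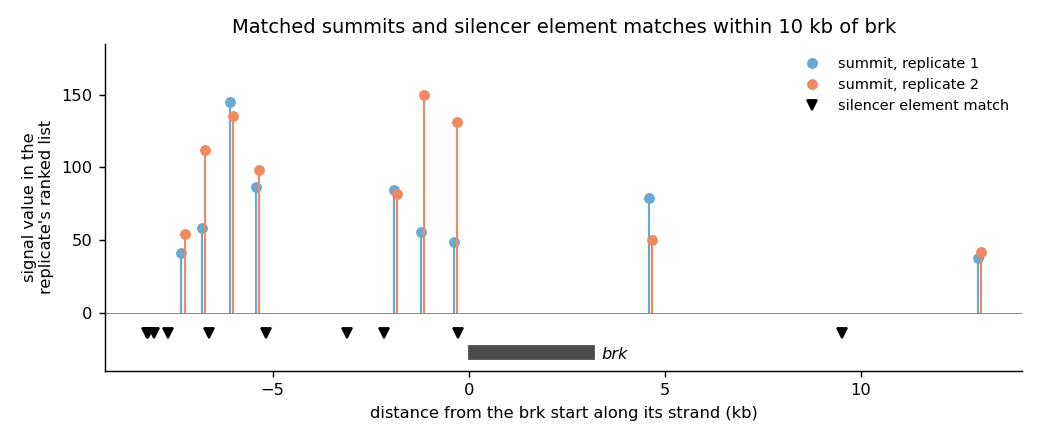
Matched summits within 10 kb of brk by distance from its start (kb), with the signal value in the ranked list of each replicate (blue for replicate 1, orange for replicate 2). Triangles mark the 10 silencer element matches and the grey bar the gene. The 7 upstream summits and 9 upstream elements occupy the same stretch, from 8210 bp upstream to the promoter.

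The gene shn (FBgn0003396; 2R, 11159086 to 11217394, plus strand), whose product joins Mad and Med at the silencer elements, held the most peaks of the 10 genes. It had 21 conservative peaks, 15 of them matched in both replicates, and ranked 14 among all protein-coding genes by the number of matched peaks. It is also long, at 58309 bp. With 0.249 matched peaks per kb of gene and flanks it ranked 20 among the 1020 genes over 20 kb, whose median was 0.0361, and dpp and tkv ranked 176 and 251 there. The 15 summits stretched over 33576 bp and lay in the middle part of the gene. Gaps between them ran from 232 to 4668 bp, with a median of 2268 bp. The closest pair lies in peaks that meet at base 11194863 and are counted as separate peaks here. No peak was found at the first TSS of shn. Introns held 13 of the 15 summits and non-coding exon sequence the other 2.

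The strongest shn peak lay 152 bp upstream of the second TSS, with a signal value of 564. It had 128 in replicate 1 and 436 in replicate 2 (282 ± 218, SD, n = 2), the widest gap of any member peak. The next were intronic. That at 5557 bp from the nearest TSS had 528 (232 in replicate 1 and 293 in replicate 2), and that at 1338 bp had 451 (199.9 and 247). Those at 1107 bp and 4516 bp had 348 (113 in replicate 1 and 229.7 in replicate 2) and 344 (137 and 231). A second promoter peak, 36 bp downstream of the last TSS, had 173 (72.9 and 107). The other 9 matched peaks had signal values between 75.0 and 238. In all, 11 of the 15 had a higher value in replicate 2. The 6 unmatched peaks were weak, at 84.1 or less, and 3 lacked a summit in replicate 1 and 3 in replicate 2.

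**Figure D4:**
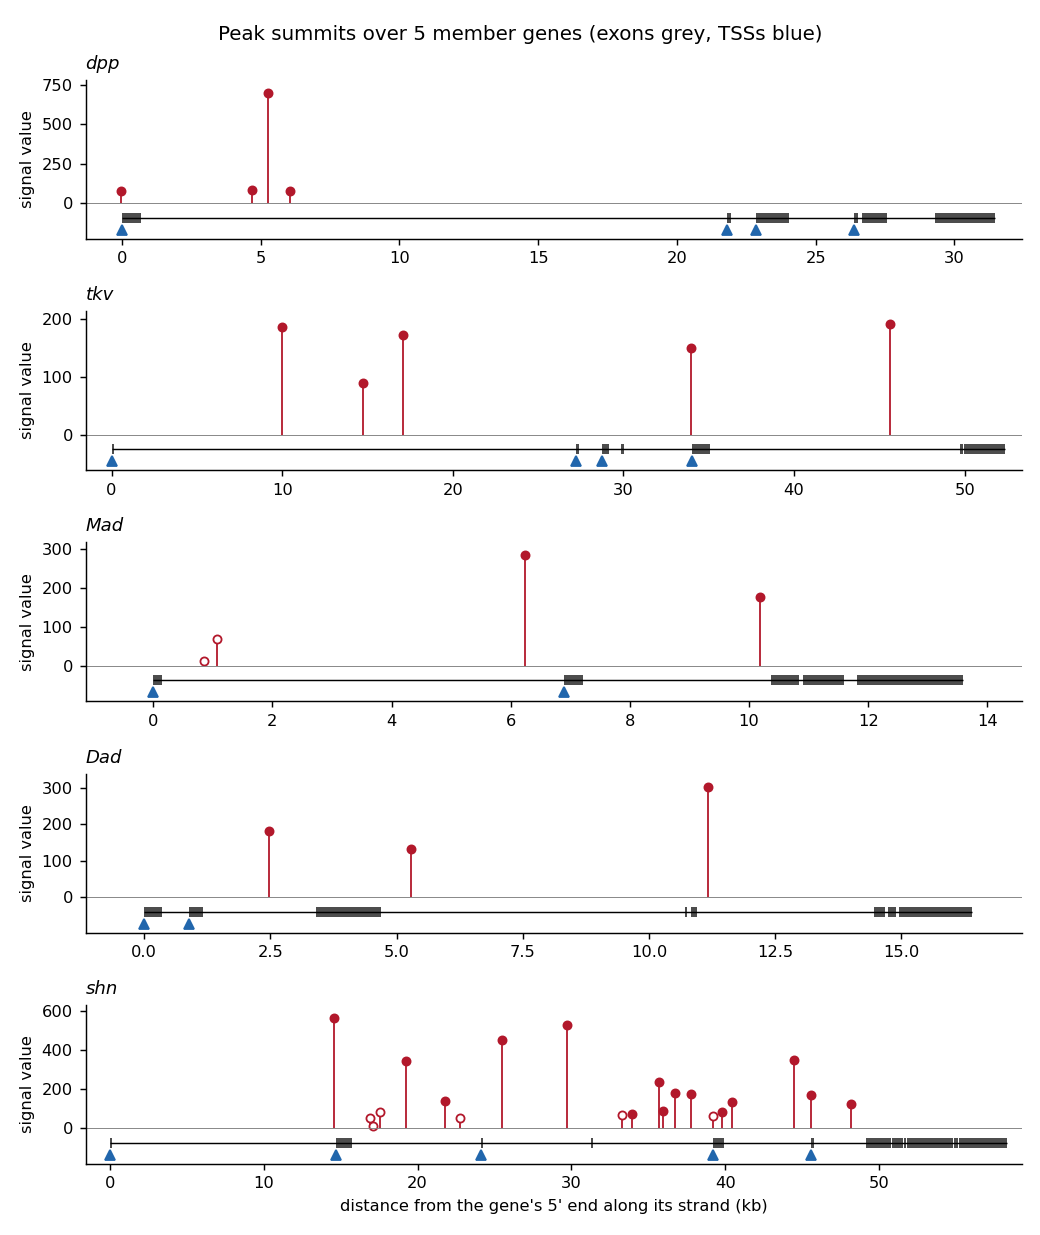
Conservative peak summits over dpp, tkv, Mad, Dad and shn by distance from the gene's 5′ end (kb), with line height giving the signal value. Filled points are matched in both replicates and open points are not, grey boxes are exons, and blue triangles are TSSs. Most summits lie in introns, the single tall peak of dpp reaches 699, and shn carries 15 filled points over its middle part.

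Taken by position, 28 of the 32 peaks lay inside the member gene, 26 of them in introns, and none in coding sequence. Of the 32, 7 had a protein-coding TSS no more than 500 bp away (21.9%, 95% Wilson interval 11.0 to 38.8%), against 39.0% of all matched peaks (37.8 to 40.2%). For 2 of the 7 this was a TSS of a neighbour only (Nop17l and Mnat9). In the thresholded list of replicate 1 alone this came to 15.8%, and in that of replicate 2 to 24.5% (mean 20.2% ± 6.18, SD, n = 2), against 36.9 and 42.7% of all peaks. The peaks of 1 gene are not independent of each other, and shn gave 15 of the 32, with 2 at a TSS. Without shn, 5 of 17 were at a TSS (29.4%). The members have a longer median length than all genes, and the share over all matched peaks was not restricted to genes of like length.

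The largest gaps between replicates lay in sequence richer in G and C than the typical member peak. Over the 32 peaks the median ratio of replicate 2 to replicate 1 was 1.21, against 1.10 over all matched peaks, and 19 were higher in replicate 2. This rests on shn, with a median of 1.27 over its 15 peaks, since the median over the other 17 was 0.949. In 5 of the 32 the ratio was over 2 (15.6%), against 9.05% of all matched peaks. These were the promoter peak of shn (3.41), the internal promoter of tkv (2.998), the brk promoter (2.71), the proximal Dad peak (2.67) and a shn peak near its last TSS (2.03). Their windows held between 40.6 and 58.4% G and C, and the median over the other 27 was 33.7%. The 10 member peaks with up to 30% G and C had ratios between 0.603 and 1.27, and the 7 with over 50% had ratios between 0.636 and 2.998. The same order held over the series, with a median ratio of 0.998 over 2074 peaks of up to 30% and of 1.55 over 1006 peaks of over 50%. The part of base composition or of library preparation in these gaps was not tested.

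**Figure D5:**
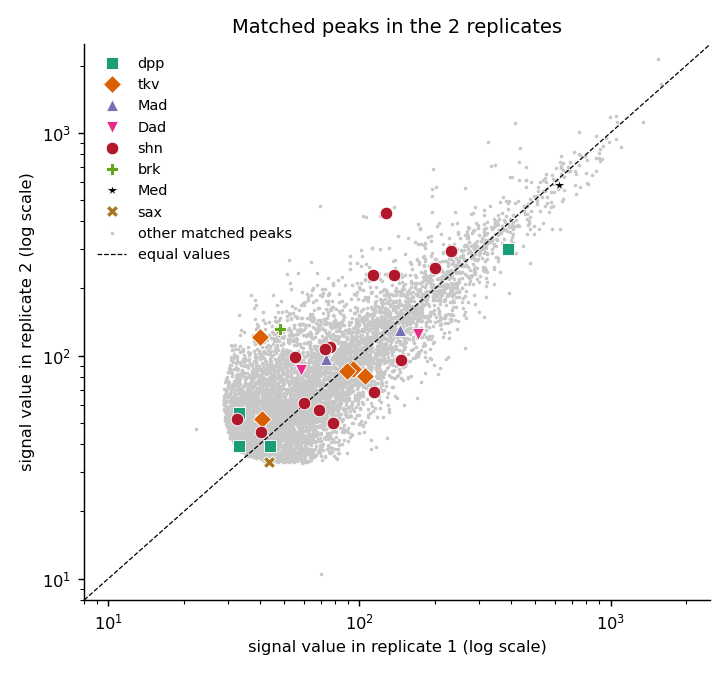
Signal value of each matched peak in the ranked lists of replicate 1 and replicate 2 (both log scale), with member peaks in colour by gene and the other matched peaks in grey. The dashed line marks equal values. The peaks of Med (623 in replicate 1 and 580.4 in replicate 2) and the strongest of dpp (391 and 301) lie just below the line, and the strongest promoter peaks of shn, tkv and brk lie above it, as do several intronic shn peaks.

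The ETS word GGAA was found at a smaller share of the 32 member summits than of all matched peaks, but this gap was narrower in the lists of single replicates. GGAA occurred within 50 bp of the summit in 8 of 32 peaks (25.0%, 95% Wilson interval 13.3 to 42.1%), against 49.2% of all matched peaks, and GGAT in 9 (28.1%, interval 15.6 to 45.4%), against 30.8%. At least 1 of the 2 words was present in 15 of 32 (46.9%, interval 30.9 to 63.6%), against 64.9%. In the thresholded list of replicate 1, GGAA alone was at 16 of 38 member peaks (42.1%, interval 27.9 to 57.8%), against 48.7% of all peaks of that list. In that of replicate 2, GGAA was at 22 of 53 (41.5%, interval 29.3 to 54.9%), against 49.5%, so that both GGAA intervals include the share over all peaks. GGAT was at 11 of 38 member peaks in the list of replicate 1 (28.9%, interval 17.0 to 44.8%), against 32.3%. In that of replicate 2, GGAT was at 8 of 53 (15.1%, interval 7.85 to 27.1%), and the 30.3% over all peaks lies above this interval. Of these 53 peaks, 25 were at shn, and some calls overlapped each other. The peaks are thus not independent, the words and lists compared are many, and the intervals are not a test of depletion. The GAGA factor word GAGAG was present in 6 (18.8%, against 15.6%) and the BEAF-32 word CGATA in 3, all in shn (9.38%, against 12.6%). The TATA box word TATAAAA was in none of the 32, which by the rule of 3 counts allows a share of up to 9.38%, against 8.23% of all matched peaks, and the M1BP word GGTCACAC was in none, against 0.653%. Of the pathway's own words, GTCTAG, a Smad box, was in 1 shn peak (3.12%), against 1.45% of all matched peaks, and GCCGNCG, bound by Mad, was in none, against 2.82% of all matched peaks. None of these words contains another, and all were searched on both strands. A match is one of letters and was not tested for binding.

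A wider list of 42 genes of the BMP and Activin branches was examined in the same way, and 21 had a peak, against 30.8% of all protein-coding genes, and 13 had one at their own TSS, against 20.1%. By length, 3 of 11 genes of up to 5 kb had a peak, against 22.8% of all such genes, 7 of 19 of 5 to 20 kb, against 50.2%, and 11 of 12 over 20 kb, against 65.3%. By role, 1 of 5 other ligand genes had a peak, daw, the gene of an Activin-like ligand (signal 172, 64.0 in replicate 1 and 105 in replicate 2). Of 4 other receptor and Smad genes, 2 had one, wit, the type II receptor of the neuromuscular junction (968; 508 and 496), and Smox, the Smad of the Activin branch (116; 41.0 and 64.6). Peaks were found at 6 of 12 extracellular regulators, with the strongest at magu (497), which encodes a secreted feedback regulator, the glypican gene dally (371) and the BMP antagonist gene sog (329). Of 9 intracellular regulators, 7 had a peak. The strongest were at the corepressor gene gro (815; 428 in replicate 1 and 387 in replicate 2), at Snoo, the fly Ski and Sno homologue, which held 17 matched peaks (strongest 692), and near nej, the gene of the coactivator CBP (477). Of 12 Dpp target genes, 5 had one. The strongest were at tin (647; 274 in replicate 1 and 373 in replicate 2), ush (239, with 10 peaks) and bi (148). The 7 without one were salm, salr, vg, pnr, zen, bam and Doc2, which are named after their values were seen.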

How the data were processed

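Peak lists were deposited by the authors on dm6, per the labels. The sources used here name no aligner or peak caller. Series lists were derived from both alignments and a control file, and the ranked and thresholded lists of a replicate from its own alignment and that file, per the labels' file lists. The deposited signal value of each peak is the only measurement used; depth is unknown, and Wilson intervals cover counting only. The 2 ranked series-level lists were not used, since no label assigns their 16 columns of compared values to a replicate.

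Gene models were those of Ensembl release 115 (BDGP 6.54, dm6 coordinates), and sequence came from the RefSeq copy of the Release 6 assembly, whose arm lengths contain every peak and gene. Peaks on the main arms were kept. Each of the 7157 conservative peaks was matched to the nearest summit within 100 bp in each ranked list. Words were searched in 101 bp at the summit. Assignment, matching and word search were tested on simulated data, in Python 3.11.15 with pandas 2.3.3 and SciPy 1.17.1. Members and lists were chosen with earlier results of these data known. All 10 members are described, and of other pathway genes up to 3 per role with the strongest peaks. Alternatives were the flank, match distance, list, threshold, single replicates, and TSS and word windows.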

Additional observations from a re-analysis of the deposited data

How the results depend on the processing

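The 32 peaks became 28 to 39 with flanks of 0 to 5000 bp and 50 with 10000 bp (a width added after seeing the data), 25 with overlap in both thresholded lists, and between 38 and 53 with 1 replicate left out. The 8 members with a peak became 5 with no flank, against 14.9% of all genes, and that share rose to 65.9% with a flank of 10000 bp. They became 7 without replicate 2, against 28.1% of all genes, and 10 without replicate 1, against 34.3%. They became 6 with a match within 50 bp, against 26.9% of all genes, and 6 with overlap in both thresholded lists, against 23.7%. The 4 members with a TSS summit became 2 with no flank, 2 with overlap in both thresholded lists, and between 2 and 6 with 1 replicate left out. The 20.1% of all genes with such a summit is for the main setting, and no share is given for these alternatives. The share of peaks at a TSS was 10.7% with no flank, 28.1% with a TSS window of 1000 bp and 30% with a flank of 10000 bp, and between 15.8 and 24.5% with 1 replicate left out. The median signal value of 174.5 was 138.1 in the other series-level list, 183.5 with overlap in both thresholded lists, 163 with a match within 200 bp, and between 59.6 and 71.3 in the lists of 1 replicate, whose values are lower throughout. The 46.9% of peaks with GGAA or GGAT was 53.8% and 58.0% with flanks of 5000 and 10000 bp, and 56.8% in the other series-level list. It was 52.0% with overlap in both thresholded lists, 52.2% among peaks above the median signal, and between 50.9 and 57.9% with 1 replicate left out. With windows of 51 bp it was 21.9% (GGAA alone 3.12%, GGAT alone 18.8%). With windows reaching 100 bp to either side of the summit it was 84.4% (GGAA alone 65.6%, GGAT alone 56.2%). The share of all peaks with GGAA or GGAT is not given for these alternatives, so they do not show whether the gap to all peaks held. The median replicate ratio lay between 1.119 and 1.267 and the count of other pathway genes between 16 and 29 in the alternatives run. The median percentile of 67.1 became 38.5 without replicate 1 and 49.98 without replicate 2. Single genes moved more, with put at 2 peaks in the other series-level list and in either replicate alone and brk and sax at 0 peaks when matches within 50 bp were needed. The causes were not tested. No paired analysis was possible because there is only 1 group. No result met the criteria for a closer look, since a group of 2 samples allows no outlier test.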

Other observations

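Beyond the 1 kb edge, the span between dpp and its neighbours held 4 more matched summits. The strongest lay 1718 bp upstream of dpp, with a signal value of 432 (243 in replicate 1 and 183 in replicate 2). The gap of 28374 bp between dpp and the next protein-coding gene downstream, Slh, which holds the known imaginal disc enhancers of dpp, contained 3 weaker summits, at 15450, 18702 and 27275 bp from dpp, with 92.1, 117 and 93.3. For all 3 the nearest protein-coding TSS was that of Slh, at 17398, 14146 and 5573 bp. The matched summits 4634 and 13022 bp past the brk start had 128 and 80.0, and were the only ones within 10 kb downstream of that gene. This span was examined after the data were seen.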
